A study of Mus musculus with 4 samples.

Results

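The 30 genes described here are markers of cortical neurons, and the question was where SOX2 chromatin lies around them in the mouse cortex. SOX2 was mapped by ChIP-seq: chromatin is pulled down with an antibody to the protein, its DNA is sequenced, and the reads are compared with those of unselected chromatin, the input. There were 3 SOX2 IP libraries and 1 input library, all from the cortex of wild-type C57BL/6 male mice aged 2 months, and the input was made without antibody. A further label field gives SOX2 as a transduced factor for all of them, the input included, which goes against the wild-type tissue of the protocol. The libraries hold whole cortex, so strong binding in few cells and weak binding in many cannot be told apart. The files do not measure expression, so the markers were not checked as markers here. Nothing in the labels ties the IP libraries to separate animals, and the spread between them may be technical.

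Members came from a fixed list of 30 of the 21631 protein-coding genes: 9 excitatory markers, 7 inhibitory markers and 14 genes of neurons in general. The list was drawn up with earlier results of these data known, so counts are given without p-values and no difference between lists was tested. A peak is a stretch of DNA where the authors found more IP tags (placed reads) than in the input. It was given to a gene when that gene's RefSeq span was the nearest protein-coding one to the peak's centre, at up to 50 kb. IP libraries 1, 2 and 3 held 36330529, 32492927 and 41875666 tags and 17730, 17628 and 15891 peaks, of which 39, 36 and 29 belonged to the 30 markers. These peaks lay at 17, 15 and 14 markers (56.7%, 50% and 46.7%), against 34.8%, 35% and 32.9% of all genes. These shares are not adjusted for the length of sequence nearest to a gene within 50 kb, its span included. That length had a median of 70.5 kb for the markers and 44.5 kb over all genes. Overlapping peaks were merged into regions, and a region with peaks of all 3 libraries is called reproducible. Strength is in normalized tags, which the authors gave for each peak on a scale of 10000000 tags per library.

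SOX2 is a high-mobility-group transcription factor that keeps neural stem cells in the progenitor state. In the adult cortex it is made mainly by astrocytes and cells of the oligodendrocyte lineage, and most mature neurons make little of it. Excitatory neurons release glutamate and are set apart by layer factors such as FEZF2, BCL11B and TBR1, while inhibitory neurons make GABA with the GAD enzymes. SOX proteins bind short sites with letters such as ACAATG or ACAAAG and often act beside POU factors.

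A promoter overlapped by peaks was found at 1 marker, Tubb3, which encodes the neuronal beta-III tubulin. The RefSeq table of promoter windows (250 bases before to 50 after a gene start, GRCm38.p6, the mm10 assembly) matched 23 of the 30 markers with 28 windows. Windows were not matched for Camk2a, Snap25, Nefh, Nefl, Nefm, Stmn2 and Grin2b. The Tubb3 window, chr8:123411303-123411602 on the plus strand, is shown because it is the only one of the 28 that a peak of any library overlaps. Capitals mark the 141 bases that the peaks of IP libraries 1 and 2 share, which end 41 bases before the gene start.
Tubb3: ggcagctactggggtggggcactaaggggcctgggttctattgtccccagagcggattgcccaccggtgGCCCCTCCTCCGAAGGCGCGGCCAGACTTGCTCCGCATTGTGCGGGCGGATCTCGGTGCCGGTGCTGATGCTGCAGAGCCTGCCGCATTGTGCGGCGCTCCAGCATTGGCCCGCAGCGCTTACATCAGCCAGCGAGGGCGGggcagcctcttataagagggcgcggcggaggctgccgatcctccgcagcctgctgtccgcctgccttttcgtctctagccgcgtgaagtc

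The Tubb3 region held 5.78 normalized tags in IP library 1 and 4.92 in IP library 2, 19.0-fold and 16.2-fold over the input, and no peak was called there in IP library 3. These values stand for 21 and 16 tags. The weakest called peaks of any place held 12, 10 and 12 tags in IP libraries 1, 2 and 3, and their lowest authors' scores were 14, 13 and 16, the tag thresholds in the headers. The letters ACAATG occur at 2 places in the window, both on the strand opposite to the one shown and both in the shared part, 146 to 141 and 96 to 91 bases before the start. Each lies in the same stretch of 13 bases, CCGCATTGTGCGG. ACAATG was searched on both strands, and 2 or more matches were present in 0.841% of the 21045 promoter windows of all protein-coding genes that matched.

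Over all members, ACAATG occurred in 3 of the 28 windows (10.7%, against 10.5% of all windows), and ACAAAG in 7 (25%, against 16.8%). The POU octamer ATTTGCAT occurred in 0 of 28, against 1.68% of all windows. All were searched on both strands, ACAATG and ACAAAG share their first letters, and a match shows only that the letters are there. Peaks of at least 2 libraries overlapped a window of 1 of the 23 markers (4.35%), against 13.5% of the 17274 genes with a window. Reproducible regions overlapped 0 of the 23, against 8.39% of those genes.

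Reproducible regions were found at 6 of the 30 markers (20.0%), and 22.5% of all protein-coding genes had one. The 6 genes were Fezf2 and Camk2a among the excitatory markers and Grin2b, Map2, Syt1 and Rbfox3 among the general ones. Another 7 markers had a region of 2 libraries at most: Bcl11b, Cux1, Gad1, Reln, Mef2c, Nefl and Tubb3. A further 9 had peaks of single libraries only, and 8 had no assigned peak. Counted from 2 libraries up, 13 of 30 markers (43.3%) had a region, against 31.1% of all genes, and counted from any peak 22 of 30 (73.3%), against 44.6%. The markers also had more sequence nearest to them, with a median of 70.5 kb against 44.5 kb over all genes. Per Mb of that sequence they held 2.92 reproducible regions, against 4.67 over all genes. The order of markers and background was not the same under other settings, in part by less than a single gene. With the stronger part of each library's peaks 6 of 30 markers (20%) had a reproducible region against 14.8% of all genes. With peaks of at least 8-fold it was 5 of 30 (16.7%) against 15%, and within the gene span alone 5 of 30 against 14.4%. A single gene moves the markers' share from 16.7% to 20%. The gaps to all genes in the main setting, at 8-fold and within the span are smaller than that. Without IP library 3 it was 11 of 30 (36.7%) against 26.4%.

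**Figure D1:**
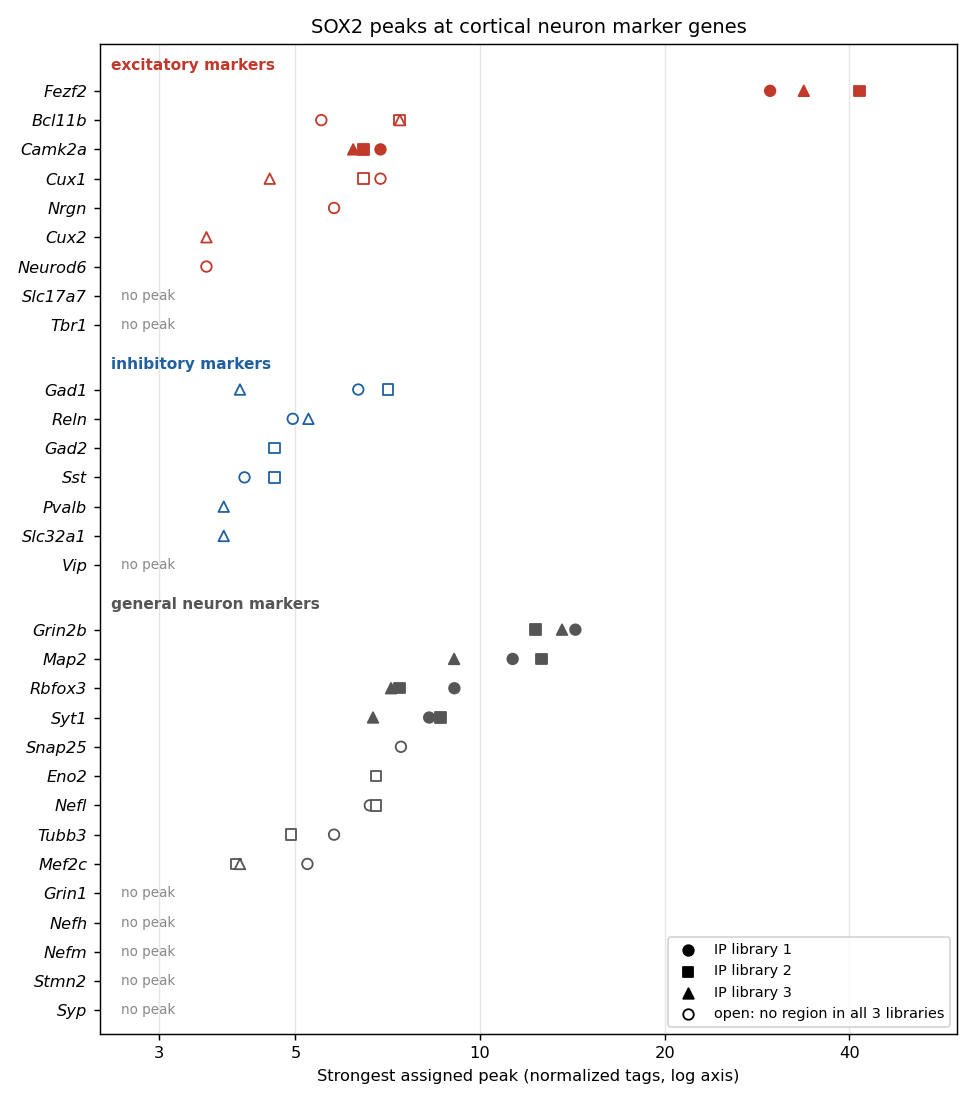
Strongest assigned SOX2 peak of each of the 30 markers in each IP library, in normalized tags on a log axis, with markers by row and libraries by symbol; filled symbols belong to genes with a region found in all 3 libraries. Fezf2 stands at 29.7 to 41.5 normalized tags, and every other marker's peaks lie at or under 14.3.

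Fezf2, which encodes the zinc finger factor that specifies deep-layer projection neurons, carried the strongest region of the list. The region, chr14:12338045-12338227, held 29.7, 41.5 and 33.7 normalized tags in IP libraries 1, 2 and 3 and averaged 35.0 ± 6.0 (SD, n = 3). It was enriched 97.9-fold, 137-fold and 111-fold over the input, from 108, 135 and 141 IP tags, with 1 input tag in each case on the authors' scales. It exceeded 99.5%, 99.9% and 99.9% of the peaks of its library, and its gene ranked 17 of the 4868 genes with a reproducible region by the strongest of them. The counting intervals of the 3 libraries overlapped (24.4 to 35.9, 34.8 to 49.2 and 28.3 to 39.7 normalized tags, exact Poisson 95% intervals, which cover counting error only). Those of IP libraries 1 and 2 shared only 34.8 to 35.9. Overlap does not show that the counts agree, and a difference was not tested.

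Fezf2 lies on the minus strand, and the region sits past its far end, 0.856 kb outside the span and 7.73 kb downstream of the start. A downstream enhancer of Fezf2 that SOX factors act on is known from the developing cortex, and whether it coincides with this region was not tested. A weaker region inside the gene, chr14:12345350-12345548, lay 0.416 kb downstream of the start. It held 4.40 normalized tags in IP library 1 and 5.54 in IP library 2 and was not called in IP library 3. A pair of further reproducible regions within 50 kb of Fezf2, with 6.46 ± 0.566 and 7.26 ± 2.07 normalized tags (SD, n = 3), fell inside the neighbouring gene Cadps, which encodes a factor of vesicle priming.

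Camk2a, the alpha subunit of the calcium/calmodulin kinase II of excitatory synapses, was the other excitatory marker with a reproducible region. It lay inside the span, 0.381 kb from one of its ends, at chr18:60987671-60987871. It held 6.88, 6.46 and 6.21 normalized tags in IP libraries 1, 2 and 3 (mean 6.52 ± 0.339, SD, n = 3) and was enriched 22.7-fold, 21.3-fold and 20.4-fold. The libraries lay close together here, all below the values of the strong Fezf2 region.

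Among the 30 markers, the layer factors beyond Fezf2 had weaker and less repeatable peaks, or none. Bcl11b (CTIP2, a factor of deep-layer neurons) had a region of 2 libraries 26.4 kb outside the gene, with 7.39 normalized tags in IP library 2 and 7.40 in IP library 3. It also had 3 peaks of single libraries inside the gene, at 4.62 to 6.46 normalized tags. Cux1, an upper-layer factor that other cells also make, had a region of 2 libraries 209 kb downstream of its start, with 6.88 in IP library 1 and 6.46 in IP library 2, and 3 single-library peaks at 4.54 to 5.23. Cux2, its upper-layer relative, had 1 peak of 3.58 normalized tags in IP library 3, 4.80 kb upstream of the nearer of its listed starts.

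Among the remaining excitatory markers, Nrgn, which encodes the calmodulin-binding protein neurogranin, had 1 peak of 5.78 normalized tags in IP library 1. Neurod6, a bHLH factor of projection neurons, had 1 peak of 3.58 in the same library, which is 13 tags. No peak was assigned to Tbr1, the deep-layer T-box factor, or to Slc17a7, the vesicular glutamate transporter VGLUT1.

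The inhibitory markers had 0 reproducible regions, while 22.5% of all genes had one. Peaks of any library lay at 6 of the 7 genes (85.7%), against 44.6% of all genes. The sequence nearest to them had a median of 69 kb, against 44.5 kb over all genes, and these shares are not adjusted for it. Gad1, the main GABA-synthesising enzyme, had 2 regions of 2 libraries each. The nearer lay 3.83 kb upstream of the listed start, at chr2:70558216-70558384, with 6.33 normalized tags in IP library 1 and 4.06 in IP library 3. The other lay 18.3 kb outside the gene on its far side and held 5.51 in IP library 1 and 7.08 in IP library 2, so each library called at least 1 Gad1 peak and none of the places was called in all 3. Reln, a secreted protein of superficial interneurons, had 1 region of 2 libraries inside its 460 kb span, with 4.95 in IP library 1 and 5.25 in IP library 3 at 4.08-fold and 4.33-fold, just above the authors' limit of 4-fold.

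The other inhibitory markers had peaks of 1 library each at a given place, and all were weak. Gad2, the second GAD enzyme, had 4.62 normalized tags in IP library 2. Sst, the neuropeptide somatostatin, had 4.13 in IP library 1 and 4.62 in IP library 2 at places 46.8 and 7.16 kb outside the gene. Pvalb, the calcium buffer of fast-spiking interneurons, and Slc32a1, the vesicular GABA transporter, had 3.82 each in IP library 3. Vip, which encodes a neuropeptide, had none. Reproducible regions did lie near Pvalb, with 11.6 ± 3.35 and 14.2 ± 1.19 normalized tags (SD, n = 3) at 24.6 and 16.9 kb, but they were nearest to Ift27, an intraflagellar transport gene.

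Of the 14 general neuron genes, 4 had reproducible regions, and they held 12 of the 14 such regions of the list. All 12 lay inside the gene span and none within 1 kb of its ends. Over all genes, 64.0% of the assigned reproducible regions lay inside the span and 23.3% had their centre within 1 kb of a span end. The 2 sets are not alike in length. The 12 regions belong to only 4 genes, with spans of 267 to 513 kb, against a median span of 17.3 kb over all genes. The shares are not adjusted for this. Exons were not mapped here, so exonic and intronic places are not told apart.

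Grin2b, the GluN2B subunit of the NMDA glutamate receptor, had 5 reproducible regions along its 460 kb. The strongest, chr6:135917717-135917910, held 14.3, 12.3 and 13.6 normalized tags in IP libraries 1, 2 and 3 (mean 13.4 ± 1.01, SD, n = 3). Its tags were repeatable, but its enrichment of 47.1-fold, 81.1-fold and 14.9-fold was not, since the input held 1, 0.5 and 3 tags there on the authors' scales and 0.5 is the floor they set. The next, chr6:136150137-136150361, held 11.0, 10.5 and 6.93 (mean 9.48 ± 2.22) at 36.3-fold, 34.5-fold and 22.8-fold, lowest in IP library 3. The other 3 averaged 7.78 ± 1.31, 7.26 ± 1.76 and 4.84 ± 0.982 normalized tags. Another 4 regions of 2 libraries and 4 of 1 library also lay inside the gene.

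Map2, the microtubule-associated protein of dendrites, had 4 reproducible regions in a 267 kb span. The strongest, chr1:66252039-66252231, held 11.3, 11.7 and 9.07 normalized tags in IP libraries 1, 2 and 3 (mean 10.7 ± 1.42, SD, n = 3) and lay 76.8 kb downstream of the start. Its enrichment was low for its strength, at 6.20-fold, 7.70-fold and 5.98-fold, and the input held 5 to 6 tags, or 4.9 on the scale of IP library 2. A region 212 kb downstream, chr1:66386753-66386950, held 6.33, 12.6 and 6.21 (mean 8.38 ± 3.66), highest in IP library 2. The Poisson 95% intervals were 4.01 to 9.50, 9.05 to 17.1 and 4.06 to 9.10. That of IP library 2 barely overlapped the others, and whether the libraries differ beyond counting error was not tested. The other pair averaged 7.42 ± 0.265 and 7.56 ± 0.501, with the libraries close together.

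Syt1, the calcium sensor of synaptic vesicle release, had 2 reproducible regions in 513 kb, 494 and 428 kb downstream of the nearest start in the promoter table. The first, chr10:108514636-108514873, held 5.78, 8.62 and 5.97 normalized tags (mean 6.79 ± 1.59, SD, n = 3). The second, chr10:108581043-108581342, held 8.26, 8.00 and 6.69 (mean 7.65 ± 0.841), and its 3 peaks had only 6 bases in common. Rbfox3, the splicing factor known as NeuN, had 1 reproducible region in 422 kb, chr11:118875451-118875666, with 9.08, 7.39 and 7.16 (mean 7.88 ± 1.05, SD, n = 3) at 15.0-fold, 12.2-fold and 11.8-fold. It lay 36.0 kb inside the high-coordinate end of the span and 115 kb upstream of the 1 start in the promoter table, which is an internal one.

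**Figure D2:**
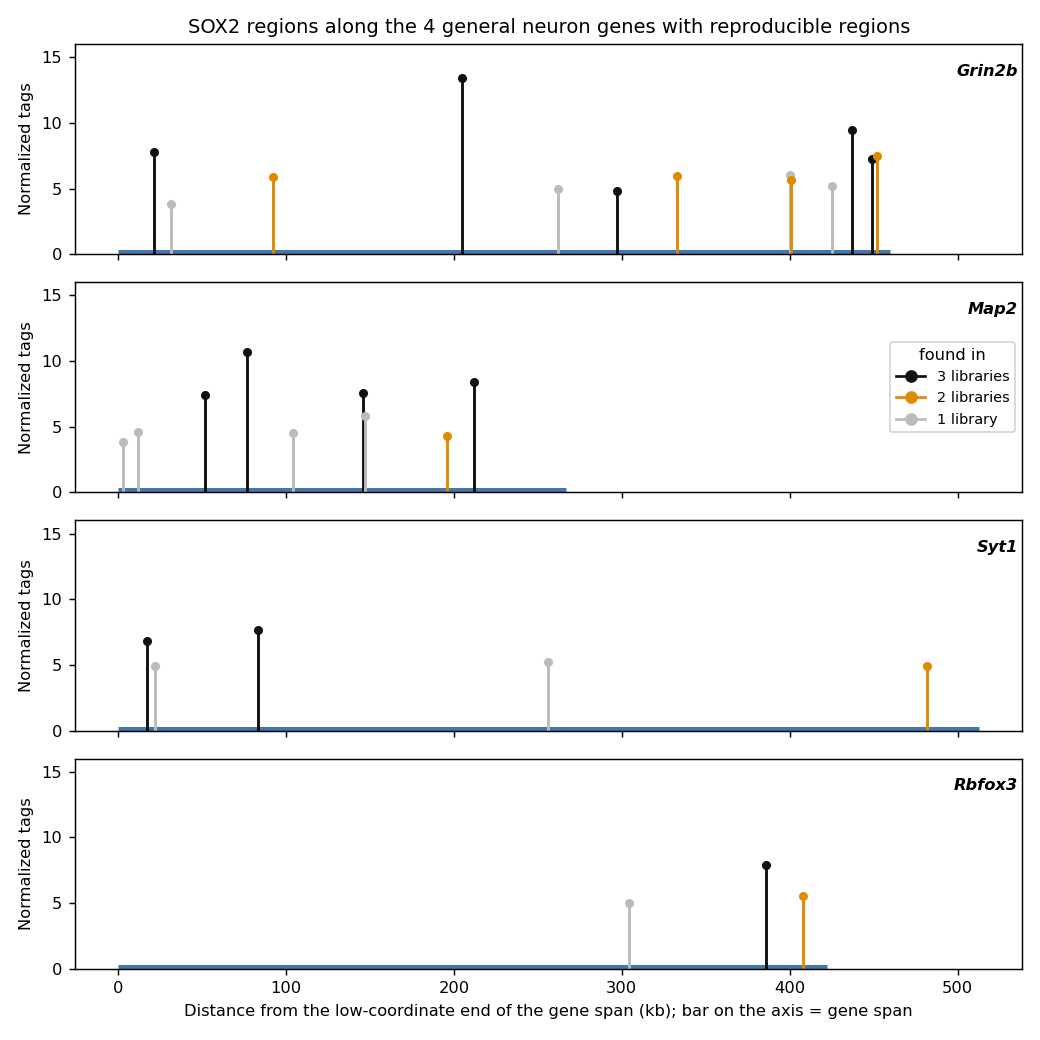
SOX2 regions along Grin2b, Map2, Syt1 and Rbfox3, with distance from the low-coordinate end of the gene span (kb) on the horizontal axis and mean normalized tags over the libraries that called the region on the vertical axis; colour gives the number of libraries. Grin2b holds 5 and Map2 holds 4 regions of 3 libraries, Syt1 holds 2 and Rbfox3 holds 1.

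These 4 genes are long, and long genes hold more regions in general. Among the markers, 4 of the 6 with a span over 200 kb had a reproducible region, the exceptions being Cux1 and Reln, against 63% of all protein-coding genes of that length. Of the 14 markers of 10 to 200 kb only Camk2a had one, while the shares over all genes were 46% for 100 to 200 kb, 29.1% for 30 to 100 kb and 20.1% for 10 to 30 kb. Of the 10 markers up to 10 kb 1 had one, Fezf2, against 10.7% of all genes of that length. Per length, Map2 held 1.50 and Grin2b 1.09 reproducible regions per 100 kb of span, against 0.368 for all 990 genes over 200 kb together, while Syt1 held 0.390 and Rbfox3 0.237. Among all genes of any length, 1.39% had 4 or more reproducible regions, as Map2 and Grin2b did, and the share among long genes alone was not computed. The length classes were chosen after the values were seen.

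**Figure D3:**
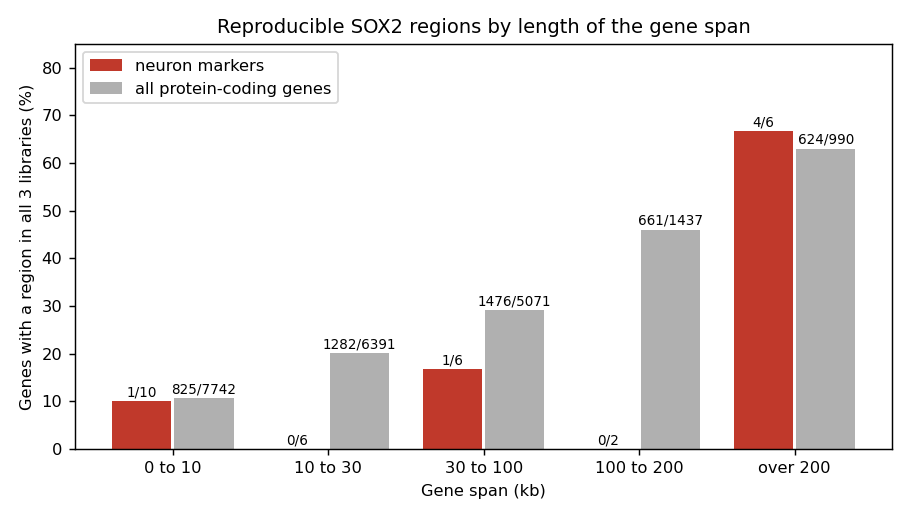
Share of genes with a SOX2 region in all 3 libraries (%) by length of the gene span (kb), for the neuron markers and for all protein-coding genes, with the number of genes with a region over the number in the class above each bar. The markers have 1 of 10 genes in the shortest class and 4 of 6 in the longest, and the share over all genes runs from 10.7% to 63% with length.

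The remaining general genes had little. Nefl, the light neurofilament chain, had a region of 2 libraries 32.2 kb outside the gene, with 6.61 in IP library 1 and 6.77 in IP library 2. Mef2c, an activity-regulated transcription factor, had 1 of 2 libraries inside the gene, with 4.95 in IP library 1 and 4.00 in IP library 2, and 2 peaks of single libraries. Snap25, a SNARE protein of synaptic vesicle fusion, had 1 peak of 7.43 normalized tags in IP library 1 at 33.1 kb outside the gene. Eno2, the neuronal enolase, had 1 peak of 6.77 in IP library 2, 1.63 kb outside its span, while a reproducible region with 8.64 ± 0.691 (SD, n = 3) lay 2.01 kb from it and was nearer still to Atn1, at 1.56 kb. No peak was assigned to the neurofilament chains Nefm and Nefh, to Stmn2, a tubulin-binding protein, to Syp, a synaptic vesicle protein, or to Grin1, the obligate subunit of NMDA receptors.

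The 3 classes can be set side by side. Reproducible regions were found at 2 of 9 excitatory markers (22.2%), 0 of 7 inhibitory markers and 4 of 14 general neuron genes (28.6%), beside 22.5% of all genes. From 2 libraries up the counts were 4 (44.4%), 2 (28.6%) and 7 (50%), against 31.1% of all genes. The classes differ in length, with a median span of 12.2 kb for the excitatory, 15.3 kb for the inhibitory and 40 kb for the general genes. Per Mb of sequence nearest to the genes, there were 1.84 reproducible regions for the excitatory, 0 for the inhibitory and 4.32 for the general markers, against 4.67 over all protein-coding genes. That last rate pools genes of every length. Inside the spans of all genes over 200 kb the rate was 0.368 per 100 kb. Without IP library 3, 11 of 30 markers (36.7%) had a region of both other libraries, against 26.4% of all genes, with 7 of the 14 general ones. The inhibitory count was 2 of 7 (28.6%) without IP library 2, against 25.1% of all genes, and 1 of 7 (14.3%) without IP library 3, against 26.4%. With a region counted for every gene within 50 kb it was 2 of 7, against 46.6% of all genes. With 7 to 14 genes a class, a single gene moves these shares strongly, and differences between the classes were not tested.

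The reproducible regions of the markers were of ordinary strength apart from Fezf2. The 14 regions had a median of 7.72 normalized tags and 10.5-fold enrichment, against 7.58 and 14.9-fold over the 7753 such regions of all genes. Means above 10 normalized tags were found in 3 of the 14, at Fezf2, Grin2b and Map2, and in 28.2% over all genes. Of the 60 regions of any support assigned to the markers, 14 (23.3%) held peaks of all 3 libraries, 16 (26.7%) of 2 and 30 (50.0%) of 1, against 34%, 20.4% and 45.6% over all genes. The focus ratio, the share of a peak's tags that lie as its centre predicts, had medians of 0.733, 0.740 and 0.726 at the markers in IP libraries 1, 2 and 3 and 0.737, 0.737 and 0.731 over all peaks.

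Other neuronal genes were taken from lists of 20 per class drawn up beside the members. Of the other excitatory genes 10 of 20 had a reproducible region, led by Tle4, a corepressor of deep-layer neurons, with 19.1 ± 2.24 normalized tags (SD, n = 3), and Foxp2, a deep-layer factor, with 11.9 ± 0.404. Of the other inhibitory genes 4 of 20 had one, among them Sox6 (13.2 ± 1.46), a SOX factor of interneurons that glia also make, Calb2 (8.65 ± 2.20) and Sp8 (7.33 ± 0.568). Of the other general genes 6 of 20 had one, the strongest at the synapsin gene Syn2 (18.4 ± 1.95) and the tau gene Mapt (9.72 ± 1.2). The background of 22.5% applies to these counts too. The other excitatory genes are long, with a median span of 74.3 kb against 17.3 kb over all genes, and per Mb of nearest sequence they held 3.39 reproducible regions, the other inhibitory genes 2.76 and the other general genes 2.83, against 4.67 over all genes.

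Glial lists were counted in the same way. Reproducible regions were found at 6 of the 30 neuron markers (20%) and at 27 of 30 astrocyte markers (90%), beside 22.5% of all protein-coding genes. Per Mb of nearest sequence there were 2.92 for the neuron markers and 22.0 for the astrocyte markers, against 4.67 over all genes. The strongest region of a gene had a median of 9.28 normalized tags over the 6 neuron markers that had one. This median was 15.9 over the 27 astrocyte markers and 8.24 over all genes with a reproducible region. The neuron markers have a median span of 21.6 kb and the astrocyte markers 15.2 kb. Of 20 oligodendrocyte lineage genes 7 (35%) had a reproducible region, led by Olig1 with 17.0 ± 1.73 (SD, n = 3), and the list held 6.59 per Mb. The 35.0 normalized tags at Fezf2 lay among those of the strongest astrocyte markers, Sparcl1 at 37.7 ± 8.37 and Gli3 at 34.1 ± 3.54.

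**Figure D4:**
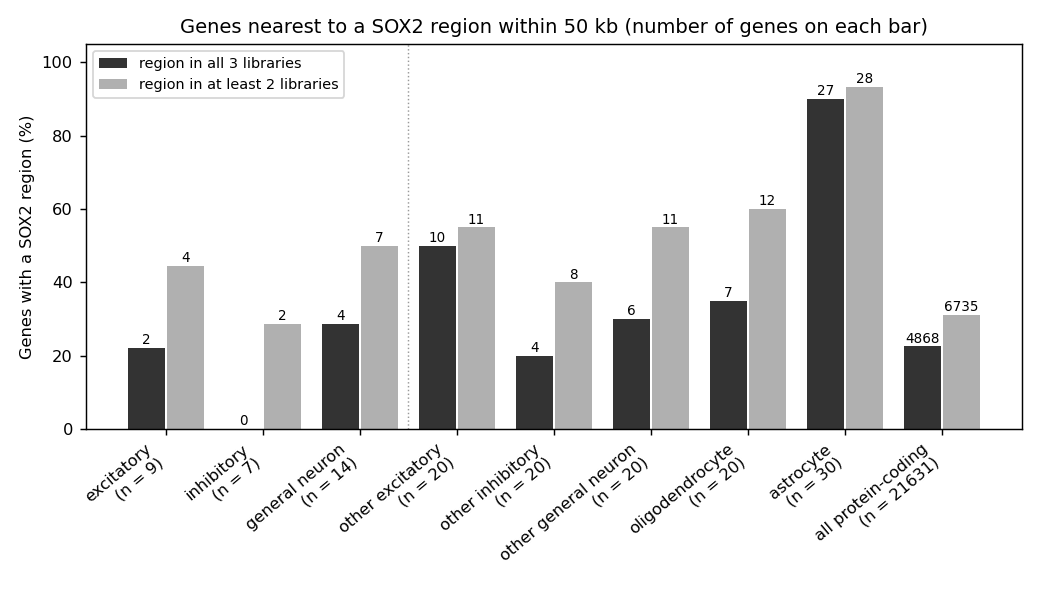
Share of genes (%) that are the nearest protein-coding gene, within 50 kb, to a SOX2 region of all 3 libraries (dark bars) or of at least 2 (grey bars), with the number of genes on each bar; the marker classes stand left of the dotted line. The marker classes run from 0 of 7 to 4 of 14 for regions of 3 libraries, and the astrocyte list stands at 27 of 30, beside 22.5% of all genes.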

How the data were processed

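Bowtie 1.0.0, HOMER 4.7 and mm10 are named in the submitters' processing notes. Each IP library's peaks were called by the authors with the input as control, per the file headers. They kept peaks of 4-fold or more over the input and over the 10 kb around them, at a Poisson p-value of 0.0001 and a false discovery rate of 0.001. Normalized tags are the authors' signal per peak. The authors' fold compares IP with input tags as a ratio, with 0.5 input tags as its floor. The focus ratio was deposited as a fraction. The authors' score and p-values were not used beyond their filter. Only IP library 2 has whole tag counts deposited, so tags per peak were computed here by scaling normalized tags back to the total of each library.

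Peaks overlapping by 1 bp or more were merged, and the strongest peak of each library gives the region's value. Centres inside several genes went to the shortest. Gene spans and promoter windows came from RefSeq tables of GRCm38.p6, without chromosome Y. Every marker is accounted for. Of the other lists the strongest genes are named, at most 4 each, and some that this rule names are not reported here. Members and lists were chosen with earlier results of these data known. Merging and assignment were tested on simulated data. Alternatives changed the libraries required, the overlap, the peak threshold, the window and the assignment. No genome sequence was used, so regions outside promoter windows are given without bases. The work used Python 3.11.15 with matplotlib 3.10.9, scipy 1.17.1, pandas 2.3.3 and numpy 2.4.6.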

Additional observations from a re-analysis of the deposited data

How the results depend on the processing

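Reproducible regions were found at 6 of 30 markers (20%), against 22.5% of all genes. With overlaps of at least 0.5 of both lengths and with a 5 kb window the count was also 6, against 20.6% and 19.5% of all genes, and with the stronger part of each library's peaks it was 6 against 14.8%. It was 5 (16.7%) with peaks of at least 8-fold, without Syt1 and against 15%, and with the gene span alone, without Fezf2 and against 14.4%, where the excitatory count was 1. The markers' share lay below that of all genes in the main setting, with the stricter overlap, with every gene within 50 kb and without IP library 1, and above it under the other alternatives. A single gene moves the markers' share from 16.7% to 20%. The gap was larger than that only with the stronger part of peaks, with 2 libraries required and without IP library 3. None of these shares is adjusted for the sequence nearest to a gene, a median of 70.5 kb for the markers and 44.5 kb over all genes. Requiring only 2 libraries gave 13 markers (43.3%), with 4 excitatory, 2 inhibitory (Gad1 and Reln) and 7 general, against 31.1% of all genes. Counting a region for every gene within 50 kb also gave 13 (43.3%), with 2 inhibitory (Pvalb and Slc32a1) and 8 general, against 46.6%. Leaving out 1 library gave 7 to 11 markers, with 2 to 3 excitatory, 0 to 2 inhibitory and 4 to 7 general. The counts were 7 (23.3%) without IP library 1, against 24.9% of all genes, 8 (26.7%) without IP library 2, against 25.1%, and 11 (36.7%) without IP library 3, against 26.4%. The genes added without IP library 3 were Cux1, Gad1, Mef2c, Nefl and Tubb3. The strength of the strongest region was 8.38 at Map2 with peaks of at least 8-fold and 6.79 at Syt1 with the stricter overlap. Each value belongs to another region of the gene, chr1:66386753-66386950 at Map2 and chr10:108514636-108514873 at Syt1. In the main setting the strongest Map2 region had peaks of 6.20-fold, 7.70-fold and 5.98-fold, all under 8-fold. The peaks of the strongest Syt1 region had only 6 bases in common. No paired analysis was possible because the label of the input carries no replicate number and no test was made. The lists hold only peaks past the authors' filter, so weaker binding at the 8 markers without peaks was not detectable in them.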
